A study of Mus musculus with 12 samples.

Results

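The genes described here are the ubiquitin-like modifier Isg15, its ligase Herc6, its protease Usp18 and the Ifit family genes Ifit1, Ifit3 and Ifit3b. They are 6 of the 633 genes that the authors listed for the cocktail experiment, taken by symbol, and each symbol had 1 row. They were chosen by their measured FPKM in the cocktail and control libraries, so the difference between those groups is a description. Calls from a fit over all listed genes are given beside their share over the table, and nothing is read from them. Aggregates of the mouse embryonic stem cell line 129w2 were started at 3000 cells per well and all received BMP4 (2 ng/ml) on day 3 and basic FGF (25 ng/ml) with retinoic acid (1 µM) on day 4, then a new plate on day 5. The 3 control libraries came from such aggregates at day 7. The 3 cocktail libraries came from aggregates cultured with a mixture of factors whose composition and timing the labels do not give, so a difference in stage from the controls cannot be told apart from the mixture. All libraries came from 1 cell line, and the labels do not say whether replicates were separate cultures. The series holds 12 libraries in 4 groups. The other 6 libraries, from co-culture with mSMGs (not spelled out in the labels) on days 5 to 7 and its controls, have a table of 546 genes that holds 0 of the 6 genes.

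Interferons act through receptor-bound JAK kinases that phosphorylate STAT proteins. Type I interferon assembles the complex ISGF3, which includes Stat2 and Irf9 and binds interferon-stimulated response elements (ISRE) in promoters, while interferon gamma acts mainly through gamma-activated sites (GAS). Isg15 is a ubiquitin-like protein that is joined to other proteins by the activating enzyme Uba7, the conjugating enzyme Ube2l6 and, in the mouse, the ligase Herc6. Usp18 removes Isg15 from its targets and also holds back the type I interferon receptor. Ifit proteins are built of tetratricopeptide repeats. Ifit1 binds RNA whose cap lacks ribose methylation, as in many viruses. Ifit genes are among the strongest targets of type I interferon in many tissues.

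Promoter sequences are shown for the 4 genes whose upstream region held the core of the response element. The choice by FPKM did not use sequence. The genes were, however, grouped as known interferon-response genes, in which such elements are likely, so matches among them are no independent support. The core was searched on both strands as GAAA, any 2 bases and GAAA (TTTC, any 2 bases and TTTC on the opposite strand), counting overlapping matches, in windows from 250 bases before to 50 bases after the start (RefSeq, GRCm38.p6). Of the 6 genes, 5 had a window. No window was available for Usp18, so it was not searched. The 250 upstream bases are printed from 5′ to 3′ on the gene's strand, with the matches in capitals. Isg15 is at chr4:156200819-156201068 (minus strand), Ifit1 at chr19:34640639-34640888, Ifit3 at chr19:34583279-34583528 and Ifit3b at chr19:34607707-34607956 (plus strand).
Isg15: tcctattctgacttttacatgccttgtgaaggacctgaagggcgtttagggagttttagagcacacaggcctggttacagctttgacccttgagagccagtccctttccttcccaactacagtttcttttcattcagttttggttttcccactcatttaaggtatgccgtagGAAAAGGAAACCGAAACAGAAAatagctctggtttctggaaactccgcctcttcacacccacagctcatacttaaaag
Ifit1: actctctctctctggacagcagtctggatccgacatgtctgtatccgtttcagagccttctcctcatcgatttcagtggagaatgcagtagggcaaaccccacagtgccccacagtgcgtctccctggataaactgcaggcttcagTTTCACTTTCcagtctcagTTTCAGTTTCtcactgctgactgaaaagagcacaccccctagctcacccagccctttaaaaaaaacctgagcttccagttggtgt
Ifit3: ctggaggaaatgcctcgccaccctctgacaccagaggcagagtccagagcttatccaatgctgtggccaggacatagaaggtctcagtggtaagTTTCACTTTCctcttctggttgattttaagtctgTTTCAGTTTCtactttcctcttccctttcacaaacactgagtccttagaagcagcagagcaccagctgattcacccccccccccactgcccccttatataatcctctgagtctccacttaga
Ifit3b: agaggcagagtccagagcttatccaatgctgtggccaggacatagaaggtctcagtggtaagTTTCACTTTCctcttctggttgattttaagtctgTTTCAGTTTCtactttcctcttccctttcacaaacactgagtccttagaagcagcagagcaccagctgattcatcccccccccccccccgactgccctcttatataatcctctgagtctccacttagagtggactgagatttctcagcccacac

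Isg15 held 3 overlapping matches, which began 78, 72 and 66 bases before the start. Ifit1 held 2 matches, at 104 and 85 bases before its start. Ifit3 and Ifit3b held the same pair of elements, TTTCACTTTC and TTTCAGTTTC, at 156 and 122 bases before the start in Ifit3 and at 188 and 154 in Ifit3b. The windows of Ifit3 and Ifit3b, of 300 bases each, aligned with 258 identical bases over 340 columns, or 75.9% with gaps counted. Part of the gaps comes from an offset of the windows, since the same elements lie at different distances from the start. On this measure Ifit1 reached 50.5% with Ifit3 and 45.2% with Ifit3b. The matches of Ifit3 and Ifit3b are therefore not separate observations. No match was found in the window of Herc6, nor in those of Uba7 and Ube2l6. Over all 32851 windows of the table, 3.44% held at least 1 match and 0.225% held 2 or more. The share was 18.4% of 294 windows of genes listed as higher with the cocktail and 1.98% of 253 windows of genes listed as lower. The former include the windows of the genes described here. Counted per gene with a window, it was 22.7% of 238 genes listed as higher and 2.67% of 187 listed as lower. The 17 windows of other listed genes taken as targets of ISGF3 cover 16 of 26 such genes. Of these windows 47.1% held a match, and 23.5% held 2 or more. Genes taken as targets of a complex that binds this element are likely to hold it, so nothing is read from these shares. A core of gamma-activated sites (TTCNNNGAA, its own opposite strand) was found in 0 of the 5 windows, against 8.30% of all windows, 13.3% of those of genes listed as higher, 5.14% of those listed as lower and 29.4% of those of the other targets. A match of letters is not a measured binding site, and the absence of one says only that these letters are not in the window.

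**Figure D1:**
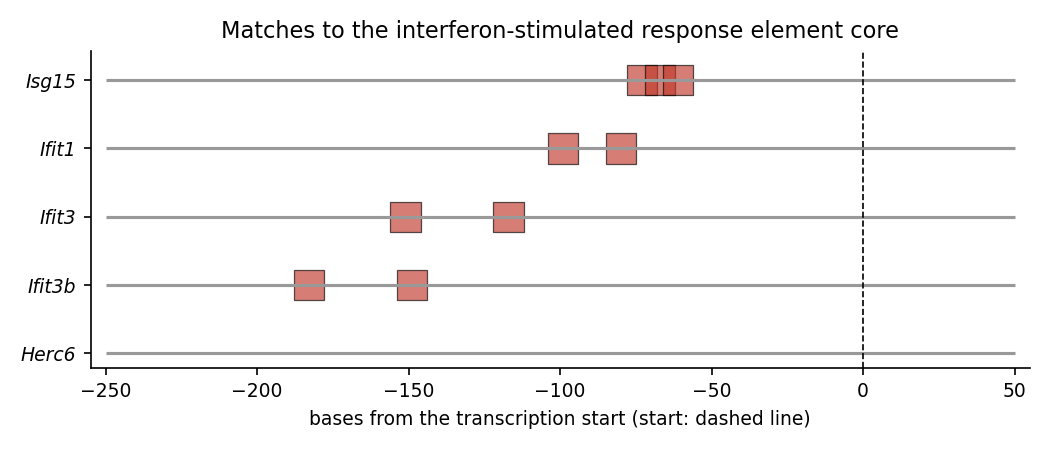
Positions of matches to the response element core in the promoter windows of 5 genes. The horizontal axis gives bases from the transcription start, from 250 before to 50 after, and each box is 1 match of 10 bases. The 4 windows with matches hold them between 188 and 57 bases before the start, and the window of Herc6 holds none.

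Isg15 (ENSMUSG00000035692, chromosome 4, 156199424 to 156200818, GRCm38) had the highest level of the 6 genes. Levels are FPKM, fragments scaled to transcript length and library size. Isg15 was listed at 0 in all 3 controls and at 13.5, 14.6 and 14.0 FPKM in cocktail libraries 1, 2 and 3, a mean of 14.0 ± 0.576 (SD, n = 3). The groups did not overlap, and the cocktail libraries lay close together. No fold is given against a group listed at 0. The difference in log2(FPKM + 1) was 3.91 (SE 0.10, limma over all listed genes), a scale that understates the change of genes with low levels. More RNA per cell and more cells of an expressing type cannot be told apart in bulk libraries.

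Herc6 (ENSMUSG00000029798, chromosome 6, 57581000 to 57664632), the ligase, was above 0 in every library. Its level was 0.0571, 0.282 and 0.132 FPKM in controls 1, 2 and 3 and 1.16, 1.28 and 1.60 FPKM in cocktail libraries 1, 2 and 3. The lowest cocktail library stood above the highest control. Mean FPKM was 8.56 times that of the controls. The ratio was 6.49, 14.2 and 7.93 without control library 1, 2 and 3 in turn, since the control levels are near 0. The log2(FPKM + 1) difference of 1.02 (SE 0.10, limma) was the smallest of the 6.

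Usp18 (ENSMUSG00000030107, chromosome 6, 121245906 to 121270917), the protease, was at 0.104, 0.220 and 0.0306 FPKM in the controls and at 2.71, 4.32 and 4.47 FPKM with the cocktail. Cocktail library 1 was the lowest of its group and still stood above every control. Mean FPKM was 32.4 times that of the controls, with a log2(FPKM + 1) difference of 2.09 (SE 0.16, limma). The ratio was 30.6, 56.8 and 23.7 without control library 1, 2 and 3 in turn. Control library 2 was the highest control for both Usp18 and Herc6.

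The other genes of the conjugation pathway were read from a list of 7 genes. Besides the 3 genes above, the activating enzyme Uba7 and the conjugating enzyme Ube2l6 were in the table, so 5 of 7 were listed. All 5 were called higher in the fit, as were 57.3% of all listed genes, and 0 lower. The ubiquitin ligase genes Trim25 and Arih1, also on the list, were not analysed here. Ube2l6 was at 4.63, 4.82 and 4.10 FPKM in the controls and at 47.5, 52.9 and 47.4 FPKM with the cocktail, 10.9 times higher in the mean. Uba7 was listed at 0, 0.0716 and 0 FPKM in the controls and at 3.16, 2.93 and 2.31 FPKM with the cocktail. Any ratio for Uba7 would rest on control library 2 alone. With the cocktail, the conjugating enzyme thus had the highest level among the 5 listed genes of the pathway, at 49.3 ± 3.14 FPKM. Isg15 came next, followed by Usp18 at 3.83 ± 0.972, Uba7 at 2.80 ± 0.439 and Herc6 at 1.35 ± 0.230 FPKM (SD, n = 3 each). In this order the ranges of Usp18 and Uba7 over libraries overlapped, and the other neighbours were separate.

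The Ifit genes lie in a cluster of 6 coding genes over 99.3 kb of chromosome 19, of which Ifit3, Ifit3b and Ifit1 were in the table. The neighbours Ifit2, Ifit1bl1 and Ifit1bl2 were not analysed here. Ifit1 (ENSMUSG00000034459, 34640871 to 34650009) was listed at 0 in all controls and at 5.77, 5.25 and 5.39 FPKM with the cocktail. Ifit3 (ENSMUSG00000074896, 34583531 to 34588731) was listed at 0 in all controls and at 2.28, 2.81 and 2.59 FPKM with the cocktail. The human protein IFIT3 is known to bind IFIT1 and to stabilise it. Ifit3b (ENSMUSG00000062488, 34607970 to 34613401) was listed at 0 in all controls and at 1.48, 1.54 and 0.796 FPKM with the cocktail, lowest in library 3. All 3 Ifit genes thus had a level above 0 in each cocktail library and in no control. Their log2(FPKM + 1) differences were 2.69 for Ifit1 (SE 0.10), 1.83 for Ifit3 (SE 0.09) and 1.17 for Ifit3b (SE 0.13, limma).

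**Figure D2:**
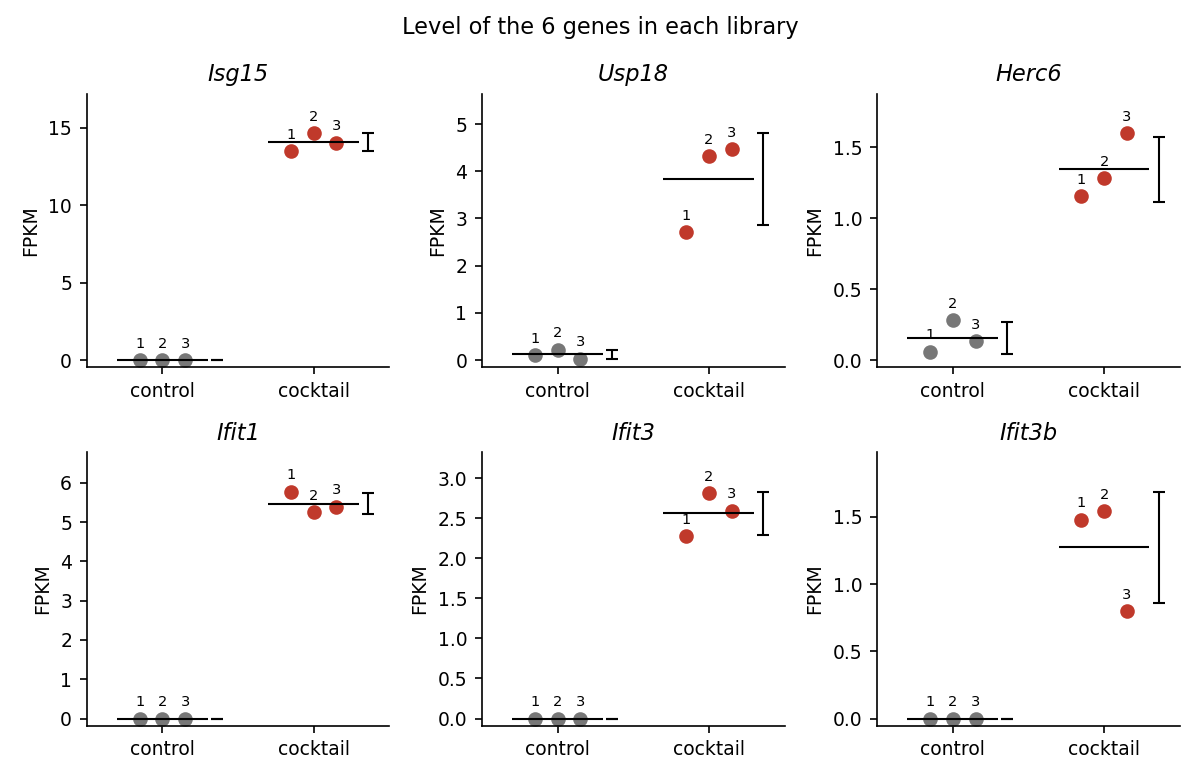
Level of each gene in FPKM (vertical axis, linear, a separate scale per panel) in the 3 control and 3 cocktail libraries, numbered as the columns of the deposited table. Lines are means and bars SD (n = 3); Isg15, Ifit1, Ifit3 and Ifit3b are at 0 in every control, and no cocktail library overlaps a control for any of the 6 genes.

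Ifit3 and Ifit3b are near-identical copies, so the split of reads between them is uncertain. Their coding sequences are both 1209 bases long and identical at 99.1% of positions. Ifit1 is identical to Ifit3 at 52.3% of alignment columns, with gaps counted. Of all stretches of 100 bases in the Ifit3 transcript, 31.6% also occur in Ifit3b, and of those in the Ifit3b transcript 27.4% occur in Ifit3 (GENCODE M21). Isg15 shares no such stretch with another gene. Ifit1 shares 3.29% with Ifit1bl2, Usp18 1.00% with Gm44148 and Herc6 10.3% with Gm45193, so the level of Herc6 also carries some uncertainty. Ifit3b made up 39.4% of the summed FPKM of the pair in cocktail library 1, 35.4% in library 2 and 23.5% in library 3. The summed FPKM of the pair was 3.75, 4.35 and 3.39 in these libraries, a coefficient of variation of 12.7%, beside 10.5% for Ifit3 and 32.5% for Ifit3b alone.

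Set side by side, 6 of 6 genes passed the fit over all listed genes as higher with the cocktail (limma, Benjamini-Hochberg adjusted p under 0.05), where 57.3% of the 633 listed genes did so (363 genes) and 42.7% passed as lower (270 genes). Every cocktail library stood above every control for 6 of 6 genes, against 57.2% of listed genes. Levels of 0 in all controls were listed for 4 of the 6, against 4.74% of listed genes (30 genes). The authors listed genes for their change and the 6 were chosen among them, so nothing is read from these shares. The median log2(FPKM + 1) difference of the 6 was 1.96, beside 0.57 over all listed genes and 1.13 over those listed as higher. The authors' deposited table gives log2 fold changes of 11.3 for Isg15, 11.7 for Ifit1, 10.1 for Ifit3 and 9.23 for Ifit3b. In the authors' deposited table, Usp18 has a log2 fold change of 4.84 and Herc6 one of 3.11. How the authors' comparison treats a control at 0 is not stated, so the first 4 of these values have no fixed scale.

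Stat2 and Irf9, which belong to ISGF3, and a list of 36 other genes taken as targets of the complex were read beside these. The list was chosen with earlier results of these data known. Binding of the complex was not measured, and whether it or another factor acts on any of these genes was not tested. Stat2 was at 5.57 ± 0.531 FPKM in the controls and 23.6 ± 1.55 with the cocktail (SD, n = 3). Irf9 was at 3.30 ± 0.744 and 19.7 ± 1.28 FPKM (SD, n = 3). Both were called higher and, unlike the Ifit genes, were well above 0 in the controls. Of the 36 other targets, 26 were in the table and all 26 were called higher, in a table where 57.3% of genes were called higher and 42.7% lower, with a median log2(FPKM + 1) difference of 2.12. Of these 26, the GTPase gene Mx2 and the nucleic acid sensor Zbp1 were listed at 0 in every control, as Isg15 and the Ifit genes were. Of 11 interferon genes and 9 receptor and JAK genes, 0 were in the table, and their levels were not analysed here. The same holds for 10 genes of ubiquitin and related enzymes, for 8 leukocyte markers, 5 neural and 6 salivary markers, and for the 4 markers of pluripotent cells and 8 of oral or surface ectoderm against which the aggregates could have been checked. Of 5 endothelial markers Kdr was listed, and of 5 mesenchymal markers Col3a1 and Pdgfra, all 3 as lower with the cocktail. Their part in the results was not tested.

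**Figure D3:**
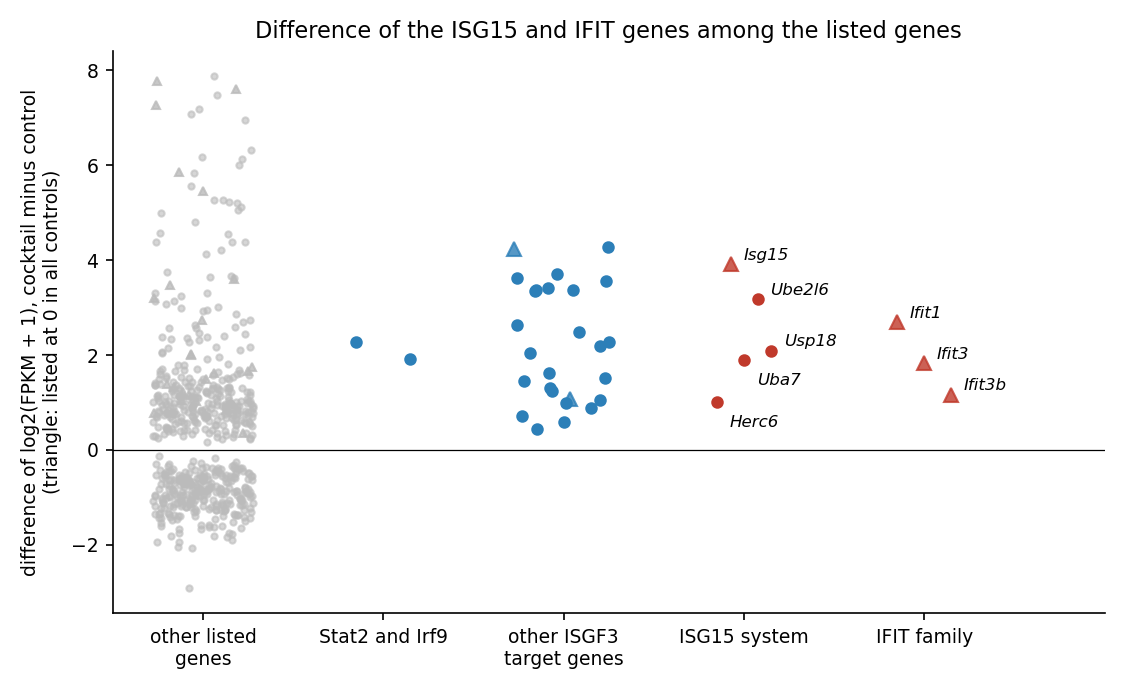
Difference of log2(FPKM + 1), cocktail minus control (vertical axis), for the listed genes in 5 sets, 1 point per gene, with triangles for genes listed at 0 in all controls. The genes of the ISG15 system and IFIT family lie between 1.02 (Herc6) and 3.91 (Isg15).

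In level, the 6 genes were not at the top of the listed genes. Among the 363 genes listed as higher, ranked by mean FPKM in the cocktail libraries, Isg15 stood at 100, Ifit1 at 161, Usp18 at 191, Ifit3 at 228, Herc6 at 286 and Ifit3b at 296. The median level over the 6 was 3.20 FPKM, beside 4.29 over genes listed as higher and 9.52 over the 26 other targets. In the order of the 6, the ranges over libraries of Usp18 and Ifit3 overlapped, as did those of Herc6 and Ifit3b. The other neighbours in that order were separate.

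The spread between cocktail libraries differed among the 6 genes. The coefficient of variation of FPKM was 4.10% for Isg15, 4.89% for Ifit1 and 10.5% for Ifit3. It was 17.1% for Herc6, 25.4% for Usp18 and 32.5% for Ifit3b. The median over the 357 listed genes with a mean of 1 to 20 FPKM was 14.2%. Of these genes, 7.84% varied less than Isg15 and 90.8% varied less than Ifit3b. The level of Ifit3b depends on the uncertain split of reads with Ifit3, and the summed FPKM of the pair varied by 12.7%. Isg15 and Ifit1, which varied least, also had the highest levels of the 6. The library that stood apart was not the same for each gene, since library 1 was low for Usp18, while library 3 was low for Ifit3b and high for Herc6.

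**Figure D4:**
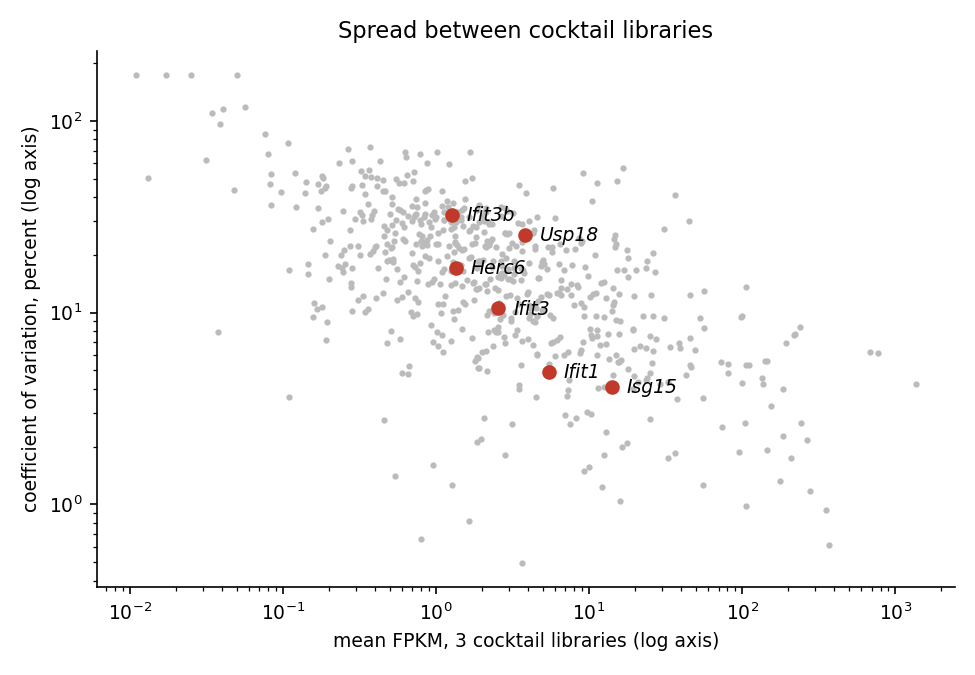
Coefficient of variation of FPKM over the 3 cocktail libraries (vertical axis, percent, log axis) against their mean FPKM (horizontal axis, log axis), for the listed genes in grey and the 6 genes in red. Isg15, at 4.10%, lies lowest of the 6 and Ifit3b, at 32.5%, highest.

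The listed gene most like each of the 6 was taken as the smallest root mean square difference of log2(FPKM + 1) over the 6 libraries. For Isg15 it was Xaf1 (0.120), for Usp18 the chemokine gene Cxcl11 (0.172), for Herc6 the cytokine gene Flt3l (0.149), for Ifit1 Epsti1 (0.165), for Ifit3 Olfr56 (0.0880) and for Ifit3b the oligoadenylate synthetase gene Oas1b (0.141). Xaf1 was at 12.9, 12.5 and 13.1 FPKM with the cocktail and at 0.0590, 0 and 0.113 in the controls. Oas1b was at 1.39, 1.64 and 0.977 FPKM with the cocktail, lowest in library 3 as Ifit3b was. These genes were picked for their likeness over the same libraries. Shared features therefore follow from the choice, and nothing is read from them.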

How the data were processed

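Per the submitters' processing notes, reads were aligned with HISAT2 to GRCm38. The sources used here do not name the counter, the annotation or the software of the authors' comparison. Per the file headers, the authors deposited FPKM per library with a log2 fold change and an adjusted p-value (FDR) per gene. In the table, the FDR reached 0.0099 at most and the log2 fold change was never smaller than 1.002 in size. The co-culture table, whose header has no unit (FPKM is inferred for these deposited values), was used only for its gene identifiers. The columns of the cocktail table show a library's group and not which sample it is, so its libraries are 3 unnumbered replicates per group with 1 measure each, the FPKM. The 6 count columns, 6 further columns named by numbers alone and 1 row without an identifier are behind no value given here. Depth was therefore not analysed, and with 3 libraries per group precision is limited.

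The planned test was a quasi-likelihood model of the counts. It was run and then set aside with the count columns, and its values are not reported here. In its place, limma 3.58.1 (R 4.3.3) with a trend was fitted to log2(FPKM + 1) of all 633 genes, without a filter, with p-values adjusted over all of them. The fit was tested on simulated data in which most genes were unchanged and no gene was absent from the controls. The deposited data differ in both respects, so nothing about the calls is read from that test. Alternatives were a pseudocount of 0.1, a mean of at least 1 FPKM in either group, and leaving out each library. The planned fit for the co-culture libraries was not run, since no gene of the interferon and ubiquitin lists is in that table.

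The genes and the lists were chosen with earlier results of these data known. The text names the 6 genes, list genes it counts and the most similar gene of each; 1 gene of the lists is not reported here. Sequences are from RefSeq (GRCm38.p6), and coordinates and transcripts from GENCODE M21 (GRCm38), matched by identifier. P-values over these libraries measure only the spread between them, which may be technical.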

Additional observations from a re-analysis of the deposited data

How the results depend on the processing

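The 6 genes were chosen by this difference, 4 of them are listed at 0 in every control and all 6 pass the filter of 1 FPKM through the cocktail libraries, so that their direction and calls held in every setting run (the other pseudocount, the filter and leaving out each library) is no sign of stability. The median difference of the 6 genes, 1.96 on log2(FPKM + 1), was 4.48 on log2(FPKM + 0.1), by construction of a scale on which low values count more. Without 1 library at a time it lay between 1.90 and 2.08, with 361 to 363 genes called higher, 270 lower and 6 of the 6 called. A fit to the counts with its alternatives (other scalings, another count model and the count filter) was also made, before the count columns were set aside, and its values are not reported here. No paired analysis was possible because the labels number the cocktail libraries 1 to 3 and their controls 4 to 6, and the table's columns match no title. The genes of the table were selected by the authors for their change, so counts of calls describe that selection.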

Other observations

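In the controls, the FPKM of the conjugation pathway was highest in library 2 for each of the 4 of its listed genes that were above 0 in any control. These were Herc6, Usp18, Uba7 and Ube2l6. Herc6, Usp18 and Uba7 were near 0 there, at 0.282, 0.220 and 0.0716 FPKM in control library 2. Ube2l6 differed little, at 4.63, 4.82 and 4.10 FPKM in control libraries 1, 2 and 3. Over the 26 other listed genes of the IFIT and ISGF3 lists above 0 in a control, 7 were highest in control library 2, 9 in library 1 and 10 in library 3. Over the other 573 such listed genes, 26.0% were highest in library 2 and 44.9% in library 1. This pattern was noticed after the values were seen and was not tested.

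Most genes beside the 6 on their chromosomes were not in the table. Within 300 kb of Isg15 lie 17 other coding genes, of Usp18 6 and of Herc6 13, and 0 of these were listed. Within the same distance of Ifit3, the death receptor gene Fas was listed besides the Ifit genes.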
